A study of Mus musculus with 41 samples.

Results

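The sites described here are the Runx2 ChIP-seq peaks of 3T3 fibroblasts at day 3 of osteogenic medium that were found in no other peak list of the series. They were chosen by overlap alone: a peak of the Runx2 day 3 list was kept if it shared not even 1 bp with a peak of any of the 7 other deposited lists. This left 19293 sites, 38.4% of the 50180 peaks of the Runx2 day 3 list (Wilson 95% interval 38.0 to 38.9%) and part of 155773 peaks in the whole series. Intervals for shares cover counting error only. Because overlap defined the sites, the absence of other factors at them is not a result.

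Runx2 is a Runt-domain transcription factor that osteoblasts need to form, and it also acts in maturing chondrocytes. It binds a short DNA motif, usually at enhancers, often beside other factors such as the Jun and Fos proteins of AP-1. 3T3 cells are mouse embryonic fibroblasts that can be driven towards an osteoblast programme by Runx2 together with a bone morphogenetic protein. Peaks called in them are candidate sites of the factor in a cell that is not skeletal, and binding at single sites was not tested here.

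The list came from 1 library, a FLAG precipitation of 3T3 cells overexpressing the tagged factor Runx2BioFL after 3 days in osteogenic medium, which held rhBMP-2 at 100 ng/ml, ascorbic acid phosphate and β-glycerophosphate. The labels do not say what drives the transgene or whether the cells were a clone. The other 3T3 lists, 1 library each, were the same cells at day 0 and cells overexpressing GFP at day 0 and at day 3, whose libraries carry the same FLAG label. The library labelled GFP day 3 also had rhBMP-2 at 100 ng/ml, and the labels give no rhBMP-2 for the day 0 libraries. Day 0 and day 3 thus differ in rhBMP-2 as well as in time. The remaining lists came from newborn C57BL/6 mice at postnatal day 1: Runx2 in rib chondrocytes and in calvarial osteoblasts of Runx2-BioFL/+ knock-in mice (2 libraries each, 1 list each), Foxa2 in wild-type rib chondrocytes and Jun in wild-type calvarial osteoblasts (1 library each). Cell identity could not be checked, since peak lists carry no expression of marker genes. For the lists named Runx2 day 0 and GFP day 3 the labels are crossed: the description of each sample points to the list that bears the other's name. Both were among the 7 lists used, so the 19293 sites are the same whichever name is right.

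The day 3 list held every degree of sharing, and sites found in it alone were its largest group by number of lists. Beside the 19293 sites, 14688 peaks (29.3%) overlapped 1 other list, 7813 overlapped 2, 4978 overlapped 3, and 4 peaks overlapped all 7. Of the peaks with 1 partner, 11118 had it in the list named Runx2 day 0, 1015 in the list named GFP day 3, 783 in chondrocyte Runx2, 650 in osteoblast Jun, 543 in osteoblast Runx2, 428 in chondrocyte Foxa2 and 151 in GFP day 0. The 11118 peaks with day 0 alone are called the peaks listed on both days, and they serve as the comparison for the 19293 sites because both classes lack any peak of the 6 remaining lists. The private share of 38.4% was close in size to that of the list named GFP day 3 (39.5%, 38.7 to 40.2%), while 11.01% of the list named Runx2 day 0 (10.7 to 11.4%) and 13.1% of GFP day 0 (11.8 to 14.5%) were in no other list. List sizes differed (16799, 31013 and 2475 peaks in these 3 lists). Among the lists of skeletal cells, the private share was 40.6% for Jun, 72.8% for Foxa2, 21.7% for osteoblast Runx2 and 21.3% for chondrocyte Runx2. No test of these shares was made.

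The edge of the rule was well populated. Just outside it, 31 day 3 peaks had a longest overlap of 1 bp with another list, 287 had one of at most 10 bp and 2076 one of at most 50 bp. Just inside it, 25 sites touched a peak of another list with no base between them, 225 had a gap of at most 10 bp and 901 a gap of at most 50 bp. Among those with a gap of 1 bp were sites on chromosome 2 from 26428805 to 26429062 (beside a chondrocyte Runx2 peak) and from 157249018 to 157249055 (beside the list named Runx2 day 0), and on chromosome 3 from 33698814 to 33698841 (beside the list named Runx2 day 0), from 87734564 to 87734575 (beside Jun) and from 121172279 to 121172446 (beside Foxa2). All positions are given 1-based in mm9, the build of the files, and a gene annotation of that build was not used here.

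The sites lay late in the deposited file. They made up 1.28% of the first of 10 equal parts of the list (64 of 5018 peaks, 1.00 to 1.63%), 19.1% of the fourth, 46.5% of the sixth and 76.7% of the last (3848 of 5018, 75.5 to 77.8%). Of all 19293 sites, 82.7% stood after the midpoint of the file, against 42.7% of the peaks listed on both days and 22.2% of the other day 3 peaks. The order of the file was not stated, and the lists hold positions without a score. Since the chance of a partner in another list also follows file position, the neighbour and chromosome comparisons with the peaks listed on both days are given over all peaks and again within the 10 parts.

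**Figure D1:**
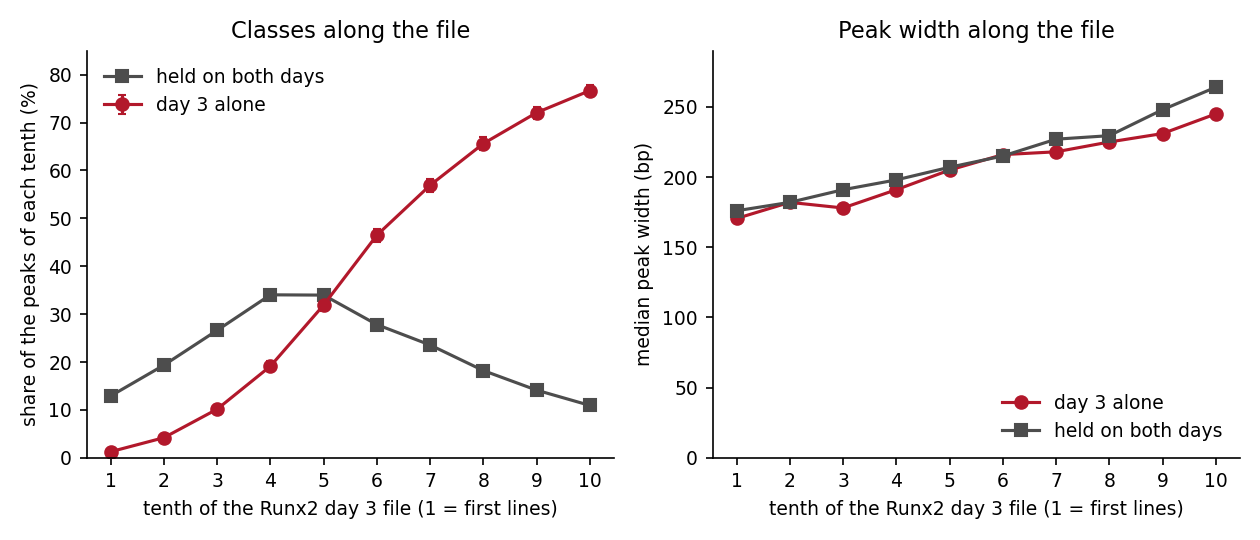
Left, share of the peaks in each of 10 equal parts of the Runx2 day 3 file (x axis, from the first lines to the last) that were found at day 3 alone, with Wilson 95% intervals, or were listed on both days and nowhere else. Right, median width in bp of the same classes. The day 3 alone share climbs from 1.28 to 76.7%, the share listed on both days is highest, at 34.0%, in parts 4 and 5, and widths rise along the file in both classes.

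The earliest sites in the file were few. The first was peak 521, on chromosome 4 from 125977930 to 125978107 (178 bp), 104 bp from a peak of the list named Runx2 day 0. The next were peak 635 on chromosome 4 from 58450112 to 58450289, 16681 bp from its nearest neighbour in another list (Foxa2), and peak 764 on chromosome 17 from 27175732 to 27175818 (87 bp), 53 bp from a day 0 peak. They were followed by peak 1027 on chromosome 11 from 3047690 to 3047731 (42 bp), 1478 bp from a day 0 peak, and peak 1192 on chromosome 6 from 39228389 to 39228540, 20970 bp from a Jun peak and 381 bp from another peak of its own list. Of these 5 leading sites, 3 had a day 0 peak within 5 kb, and for the others, peaks 635 and 1192, the nearest was 19621 and 34597 bp away.

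Width set the sites apart from the rest by little. Their median width was 221 bp (quartiles 173 and 281 bp), against 207 bp (161 and 268 bp) for peaks listed on both days and 206 bp for the other day 3 peaks. Widths ran from 4 to 498 bp, with 1255 sites under 100 bp (6.50%) and 990 over 400 bp (5.13%), and the sites covered 4432032 bp together. Width bears on the chance of overlap and so on the rule, and it was not tested. Within parts of the file the sites were mostly the narrower class: their median was 170.5 bp against 176 bp in the first part and 245 against 264 bp in the last, with equal medians of 182 bp in the second and 216 against 215 bp in the sixth. The 5 widest sites shared a width of 498 bp. The one on chromosome 15 from 36890498 to 36890995 lay 151 bp from a day 0 peak, and the one on chromosome 12 from 111076079 to 111076576 lay 6434 bp from one. A site of 497 bp on chromosome 9 from 26999796 to 27000292 lay 722 bp from a chondrocyte Runx2 peak and 161606 bp from the next peak of its own list.

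Most sites had a peak of another list in their surroundings, and the list named Runx2 day 0 was the nearest most often. The gap to the nearest peak of any other list had a median of 3804 bp (quartiles 579 and 12217 bp), and 10678 sites (55.3%, 54.6 to 56.0%) had one within 5 kb. Day 0 was the nearest list for 7730 sites (40.1%) and holds 29.4% of the peaks of the 7 lists. Foxa2 was nearest for 15.1%, the list named GFP day 3 for 13.4%, Jun for 11.5%, chondrocyte Runx2 for 10.6%, osteoblast Runx2 for 7.84% and GFP day 0 for 1.51%. These shares depend on the size of each list, and 41 sites had 2 or more lists at the same distance.

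By distance to the list named Runx2 day 0, the sites were densest near its peaks. Near misses are set in part by the rule, so these shares were not tested. Of the 19293 sites, 712 (3.69%) lay within 100 bp of a day 0 peak without sharing bases with it, 2815 (14.6%) within 500 bp, 3933 (20.4%) within 1 kb and 7552 (39.1%, 38.5 to 39.8%) within 5 kb. Per 100 bp of gap this was 3.69% of sites in the first 100 bp, 2.73% from 100 to 500 bp, 1.16% from 500 bp to 1 kb, 0.469% from 1 to 5 kb and 0.266% from 5 to 10 kb. The median gap was 8951 bp, and 1045 sites (5.42%) had no day 0 peak within 100 kb. Peaks listed on both days each already lie upon a day 0 peak. A further day 0 peak beyond it lay within 100 bp of 3.04% of them, within 500 bp of 16.8% and within 1 kb of 25.8%. Within 5 kb the share was 46.8%. Among the sites, this share was 53.1% in the first part of the file and 36.3% in the last. Near Jun and Foxa2 the first 100 bp was also the densest stretch of gaps, with 1.64% (316 sites) and 0.902% (174 sites), against 1.10 and 0.543% per 100 bp from 100 to 500 bp. The list named GFP day 3 had 1.72% and 1.11%. For the skeletal Runx2 lists it was not: chondrocyte Runx2 had 1.09% (211 sites) in the first 100 bp and 1.23% per 100 bp from there to 500 bp, and osteoblast Runx2 0.777% (150 sites) and 0.911%. Among peaks listed on both days, overlapping peaks left out, the first 100 bp was densest for each of these lists. The values were 3.09 and 1.55% for Jun, 0.765 and 0.418% for Foxa2, and 3.71 and 1.71% for the list named GFP day 3. They were 1.89 and 1.10% for chondrocyte Runx2, and 1.31 and 0.881% for osteoblast Runx2. Crowding next to other lists is thus not particular to the sites.

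**Figure D2:**
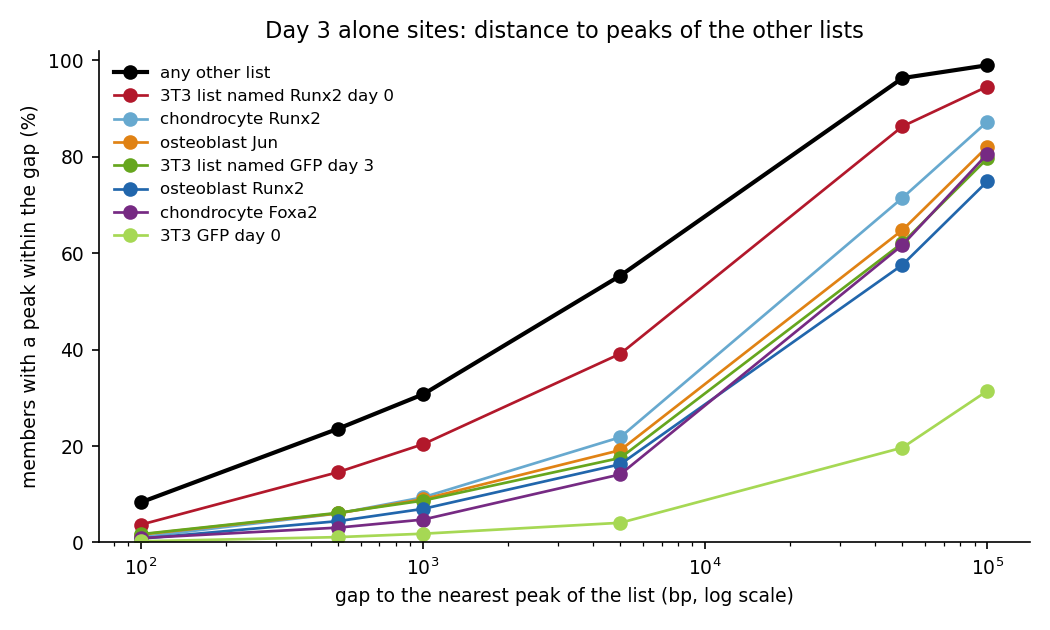
Share of the 19293 day 3 alone sites (y axis, %) that had a peak of each other list within the gap on the x axis (bp, log scale), counted as bases between the peaks. The list named Runx2 day 0 is the highest of the 7 curves, from 3.69% within 100 bp to 94.6% within 100 kb, and any other list was within 100 kb of 99.0% of the sites.

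Surroundings with several lists were less common than empty ones. None of the 7 lists had a peak within 5 kb of 8615 sites (44.7%), 1 list had one near 3993 sites (20.7%), 2 lists near 2449, 3 near 1860 and all 7 near 52. The only neighbour was the list named Runx2 day 0 for 1896 sites (9.83%), Foxa2 for 703 (3.64%) and Jun for 448 (2.32%). A Runx2 peak of chondrocytes or osteoblasts lay within 5 kb of 5351 sites (27.7%), and peaks of both near 1991 (10.3%). In 1100 cases (5.70%) such a skeletal peak was near and no peak of the other 3 lists of 3T3 cells was. Another 6210 sites (32.2%) had neither another list nor another peak of their own list within 5 kb. These most isolated sites had a median width of 226 bp and a median file position of 37719.5, against 221 bp and 36888 for all sites. Of the peaks listed on both days, overlapping peaks left out, 37.1% had no list within 5 kb and 22.1% had 1. Day 0 was the only neighbour of 11.7%, Foxa2 of 2.70% and Jun of 2.35%. A skeletal Runx2 peak was near 29.0%, both near 10.5%, and one without the other 3T3 lists near 4.30%. Neither another list nor another day 3 peak was near 27.4%. These differences were not tested.

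The sites were next compared with the peaks listed on both days, by what lay near them but not on them. Neither class overlaps the 6 lists concerned, so overlap with them does not separate the classes. The rule did use the positions of these lists, and the classes differ by definition in overlap with day 0. Nearness to the 6 lists is thus not free of the rule, and the tests below describe the classes only. Two-sided Fisher's exact tests over peaks were used, adjusted over 7 tests (Benjamini-Hochberg), with the Mantel-Haenszel odds ratio over the 10 parts of the file beside each. Peaks of 1 library are not replicates and neighbouring peaks are not independent, so these p-values measure counting error within 2 classes of 1 list. On simulated shares that fell along the file with no difference between the classes, the test over all peaks made a call in 40 of 40 draws. The test within parts made one in 3 of 40. On level shares the counts were 1 and 3 of 40. Simulated peaks were drawn independently, which the real peaks are not, and the Foxa2 share did not fall along the file. Among peaks listed on both days, the Jun share was 27.8% in the first part and 28.1% in the last. For chondrocyte Runx2 these shares were 23.6 and 22.8%, and for osteoblast Runx2 the last was above the first. The simulated fall in both classes thus does not describe the Jun and skeletal Runx2 lists. More weight is put on the test within parts only where a share falls along the file in both classes, as for the lists named GFP day 3 and GFP day 0.

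Jun, an AP-1 subunit, was less often near the sites. A Jun peak of osteoblasts lay within 5 kb of 3695 of 19293 sites (19.2%, 18.6 to 19.7%) and of 2711 of 11118 peaks listed on both days (24.4%, 23.6 to 25.2%), against 27.5% of all day 3 peaks. The odds ratio was 0.735 (0.694 to 0.777, Fisher's exact test, adjusted p = 3.63e-26) over all peaks and 0.804 (0.754 to 0.856, Cochran-Mantel-Haenszel test, adjusted p = 5.33e-11) within parts of the file. The share was lower on 19 of 20 chromosomes. The distance between the classes varied along the file: in the last part Jun was near 17.4% of the sites and 28.1% of the peaks listed on both days, and in the seventh near 18.8% and 25.8%, while in the first part the shares were 28.1% and 27.8% and in the third 27.6% of 510 sites and 25% of 1336 peaks. In the file's earlier 50% of peaks the odds ratio was 0.872 (0.788 to 0.964, exact test, adjusted p = 0.0237).

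Peaks of the GFP cells were also less often near the sites at day 0, and at day 3 only in the test over all peaks. GFP day 0 had a peak within 5 kb of 786 sites (4.07%, 3.80 to 4.36%) and of 6.10% of the peaks listed on both days (5.67 to 6.56%), against 7.59% of all day 3 peaks. This gave an odds ratio of 0.654 (0.588 to 0.728, Fisher's exact test, adjusted p = 1.30e-14) over all peaks and 0.771 (0.684 to 0.869, Cochran-Mantel-Haenszel test, adjusted p = 6.07e-05) within parts of the file. The list named GFP day 3 was near 3383 sites (17.53%, 17.0 to 18.1%) against 23.3% (22.5 to 24.1%) of the peaks listed on both days and 28.0% of all day 3 peaks. Here the odds ratio of 0.7001 (0.661 to 0.742, Fisher's exact test, adjusted p = 1.11e-32) became 0.933 (0.874 to 0.996) within parts, where it no longer passed (Cochran-Mantel-Haenszel test, adjusted p = 0.0677). The direction changed along the file. In the third part this list was near 34.7% of the sites and 27.6% of the peaks listed on both days, and in the last near 13.0% and 18.6%. The odds ratio within parts averages over both directions, so it does not show that the difference was absent.

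For the Runx2 sites of skeletal cells no difference from the peaks listed on both days passed at 5 kb. As for Jun, the whole day 3 list, which includes peaks that overlap these lists, had higher shares: 19.2% of all day 3 peaks had an osteoblast Runx2 neighbour and 24.9% a chondrocyte Runx2 neighbour within 5 kb, and these shares were not tested. An osteoblast Runx2 peak lay within 5 kb of 3130 sites (16.2%, 15.7 to 16.8%) and of 16.9% of the peaks listed on both days (16.2 to 17.6%), with an odds ratio of 0.953 (0.895 to 1.02, Fisher's exact test, adjusted p = 0.131) and of 0.990 (0.923 to 1.06) within parts. Chondrocyte Runx2 was near 4212 sites (21.8%, 21.3 to 22.4%) and near 22.6% (21.8 to 23.4%), an odds ratio of 0.956 (0.903 to 1.01, Fisher's exact test, adjusted p = 0.131) and of 0.964 (0.905 to 1.03) within parts. The intervals within parts reach down to 0.923 and 0.905 under the deposited names. They treat neighbouring peaks as independent and so set no firm limit on a difference. For osteoblast Runx2 the difference passed at distances of 1 kb (6.97% against 7.81%, odds ratio 0.884, exact test, adjusted p = 0.00796) and 50 kb (57.6% against 59.2%, odds ratio 0.936, exact test, adjusted p = 0.00717). Within parts of the file neither passed, with odds ratios of 0.976 (0.884 to 1.08) at 1 kb and 0.976 (0.925 to 1.03) at 50 kb.

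Foxa2, a forkhead factor measured in chondrocytes, was more often near the sites than near the peaks listed on both days in the test over all peaks. It had a peak within 5 kb of 2724 sites (14.1%, 13.6 to 14.6%) and of 1440 peaks listed on both days (13.0%, 12.3 to 13.6%). Its share among all day 3 peaks, 14.7%, was above both. The odds ratio was 1.10 (1.03 to 1.18, Fisher's exact test, adjusted p = 0.00630) over all peaks, with a higher share among the peaks listed on both days on 5 of 20 chromosomes, and 1.09 (1.01 to 1.18) within parts, where it did not pass (Cochran-Mantel-Haenszel test, adjusted p = 0.0631). At 50 kb the odds ratio for Foxa2 within parts was 1.13 (1.07 to 1.19), which passed. Whether the Foxa2 and Jun odds ratios differ from each other was not tested.

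**Figure D3:**
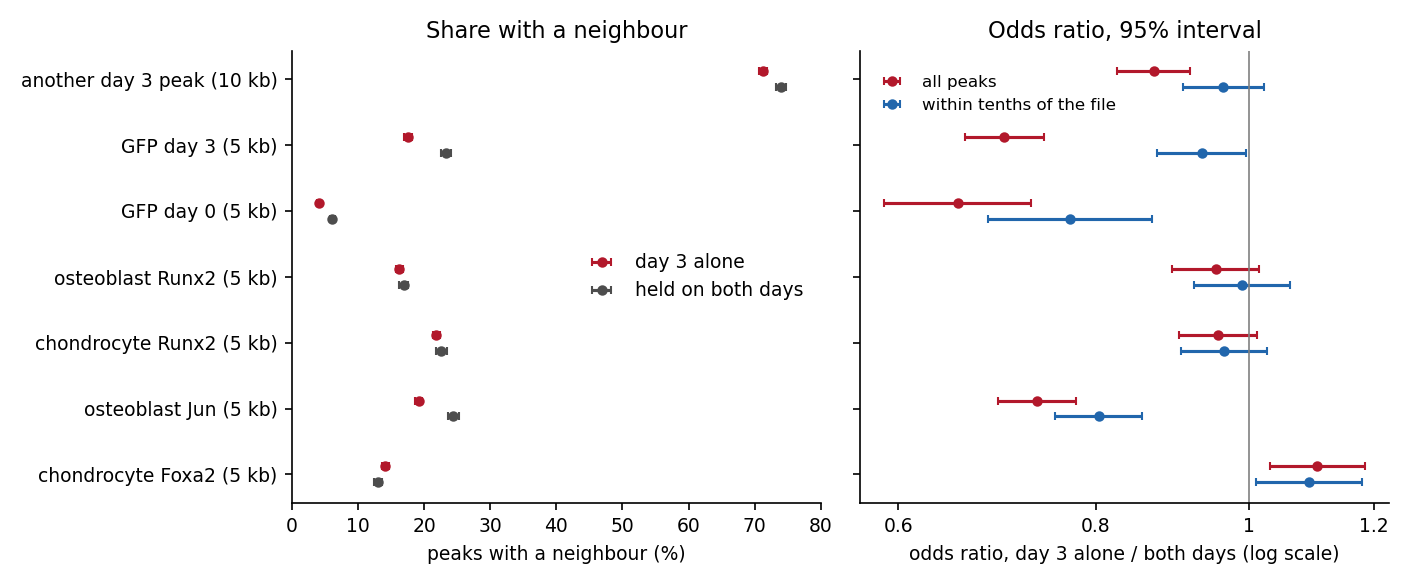
Left, share of day 3 alone sites and of peaks listed on both days with a neighbour from each list (x axis, %, with Wilson 95% intervals) within the distance given in parentheses. Right, odds ratio of the first class over the second (log scale, 95% intervals), over all peaks and within 10 parts of the file. Jun and GFP day 0 stay below 1 in both, with 0.804 and 0.771 within parts, and both skeletal Runx2 lists cross 1.

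If the crossed names are exchanged, the class compared becomes the 1015 day 3 peaks that overlap the list named GFP day 3 and no other. The day 3 alone sites then had fewer neighbours within 5 kb in 5 of the 6 lists, over all peaks and within parts of the file. Within parts, the odds ratio was 0.340 (0.295 to 0.392) for Jun, 0.341 (0.273 to 0.425) for GFP day 0, 0.357 (0.309 to 0.413) for the list named Runx2 day 0, which takes the place of GFP day 3, 0.522 (0.447 to 0.610) for osteoblast Runx2 and 0.496 (0.430 to 0.574) for chondrocyte Runx2. For another day 3 peak within 10 kb it was 0.535 (0.445 to 0.644). Foxa2 did not pass, at 1.05 (0.857 to 1.28). The skeletal Runx2 lists thus passed with the names exchanged and did not by the deposited names.

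Within their own list the sites stood in loose company. Another day 3 peak lay within 10 kb of 13747 sites (71.3%, 70.6 to 71.9%), against 74.0% of peaks listed on both days (73.2 to 74.8%) and 75.4% of all day 3 peaks. The odds ratio against peaks listed on both days was 0.871 (0.826 to 0.918, Fisher's exact test, adjusted p = 4.02e-07) over all peaks and 0.964 (0.908 to 1.02) within parts, where it did not pass (Cochran-Mantel-Haenszel test, adjusted p = 0.306). For 9337 sites (48.4%) a day 3 peak with a day 0 partner lay within 10 kb, and for 3409 (17.7%) the day 3 peaks within that distance were all further day 3 alone sites. Over all day 3 peaks these shares were 56.9% and 13.3%. The peak calls overlapped within the list itself: 623 sites (3.23%) shared bases with another day 3 peak, and in 152 cases with one that was not a day 3 alone site. Of all day 3 peaks, 11.4% overlapped another.

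Linked at gaps of up to 10 kb, 9755 sites stood singly and 9538 (49.4%) formed 3590 runs. A day 3 alone site also lay within 10 kb of 45.8% of all day 3 peaks and of 45.6% of the peaks listed on both days. These shares were not tested. Pairs made up 2318 of these runs, 253 runs held 5 or more sites (1564 sites together), and 70 of those 253 held no other day 3 peak within their span. The run with most sites had 22 in 41928 bp on chromosome 8 from 110060550 to 110102477. Its sites were 49 to 356 bp wide (median 226 bp), the earliest was peak 20316 of the file, and its span also held 11 other day 3 peaks, 10 peaks of the list named Runx2 day 0, 4 of chondrocyte Runx2, 3 of Foxa2, 2 of the list named GFP day 3 and 1 of osteoblast Runx2. A further run of 14 sites, named for its nearness to the first, lay on the same chromosome from 109980075 to 110030267, with 9 Foxa2, 7 chondrocyte Runx2 and 6 day 0 peaks in its span.

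The run next in number of sites held 17 in 37149 bp on chromosome 15 from 36321597 to 36358745, with a median width of 273 bp (145 to 482 bp) and the earliest site at peak 8825 of the file. Only 1 other day 3 peak fell within its span, no peak of the lists named Runx2 day 0, GFP day 3 or GFP day 0, 1 each of chondrocyte and osteoblast Runx2, and 2 of Foxa2. The third by number had 15 sites in 43118 bp on chromosome 5 from 34016920 to 34060037, among them peak 2786 of the file (34042086 to 34042259), and shared its span with 6 other day 3 peaks, 6 Foxa2 peaks, and 3 peaks each of osteoblast Runx2 and of the lists named Runx2 day 0 and GFP day 3. These 4 runs held no Jun or GFP day 0 peak, but smaller runs did: one of 12 sites on chromosome 19 spanned 11 Jun and 8 GFP day 0 peaks, and one of 13 sites on chromosome 18 spanned 3 Jun peaks. More tightly packed runs were also found among those with fewer sites, such as 12 sites in 9552 bp on chromosome 5 from 137535920 to 137545471.

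**Figure D4:**
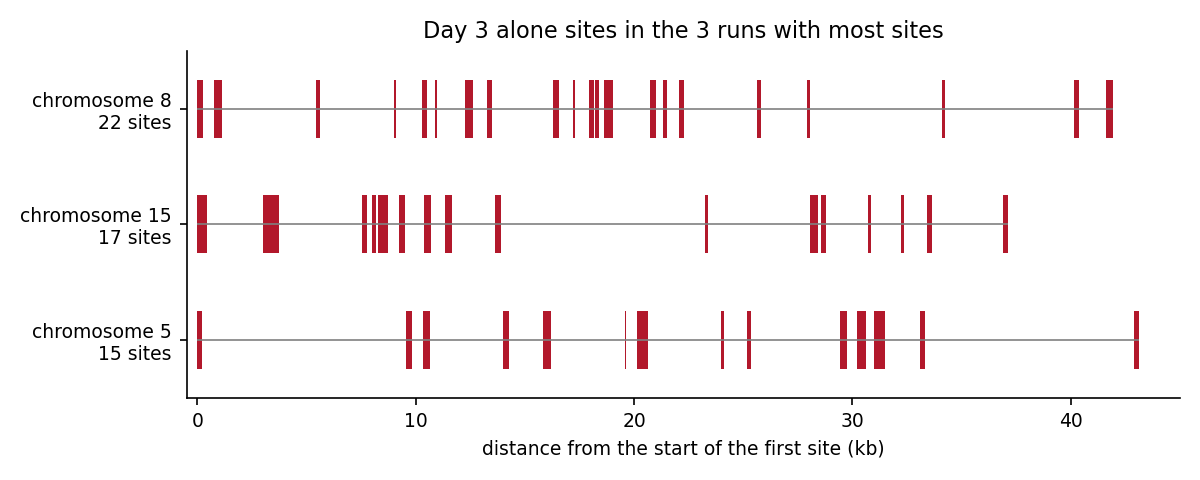
Positions of the day 3 alone sites in the 3 runs with most sites, drawn to scale as boxes along the distance from the first site (x axis, kb). The run of 22 sites on chromosome 8 spans 41928 bp, that of 17 sites on chromosome 15 falls into 2 groups with a lone site between them, and that of 15 sites on chromosome 5 spans 43118 bp.

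At the other extreme, 194 sites (1.01%) had no peak of any other list within 100 kb. Of the peaks listed on both days, overlapping peaks left out, 104 (0.935%) had none. Of the 194 sites, 24 lay on chromosome X, where they were 14.4% of the 167 sites of that chromosome, against 0.201 to 2.51% on the autosomes. Chromosome X held few peaks of every list, from 0.727% of GFP day 0 to 1.43% of Foxa2, so long gaps there are not particular to these sites. The farthest was on chromosome 14 from 6240668 to 6240786 (119 bp), 1823839 bp from a GFP day 0 peak, and the next on chromosome 10 from 48042700 to 48043020 (321 bp), 1494311 bp from a Foxa2 peak. The others of the farthest 5 were on chromosome 5 from 80459659 to 80459853 (gap of 989235 bp), chromosome 9 from 5395879 to 5396111 (947024 bp) and chromosome 13 from 27641707 to 27641968 (747124 bp). The nearest other peak of the own list was 356827 bp away for the site on chromosome 5 and at least 867624 bp away for the other 4.

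Sites of day 3 alone were spread over all autosomes and chromosome X. Most lay on chromosome 11 (1669 sites, 8.65%), chromosome 4 (1448, 7.51%), chromosome 5 (1422, 7.37%) and chromosome 2 (1396, 7.24%), and fewest on chromosome X (167, 0.866%). Their share of the day 3 list ran from 36.3% on chromosome 2 to 42.5% on chromosome 15. Against the peaks listed on both days, 2 of 20 chromosomes (10%) passed Fisher's exact test after adjustment over 20, and 6 had a p under 0.05 before it. Both passing chromosomes held a smaller share of the sites: chromosome 2 with 7.24% against 8.41% (odds ratio 0.850, 0.779 to 0.927, exact test, adjusted p = 0.00482) and chromosome 11 with 8.65% against 9.80% (odds ratio 0.871, 0.804 to 0.945, adjusted p = 0.00784). Within parts of the file 6 chromosomes passed the Cochran-Mantel-Haenszel test. Chromosome 2 was again among them, with an odds ratio of 0.852 (0.773 to 0.939), while chromosome 11, at 0.966, was not. The others held a smaller share of the sites on chromosomes 7 (0.845) and 13 (0.832) and a larger one on chromosomes 5 (1.18), 10 (1.18) and 19 (1.19).

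**Figure D5:**
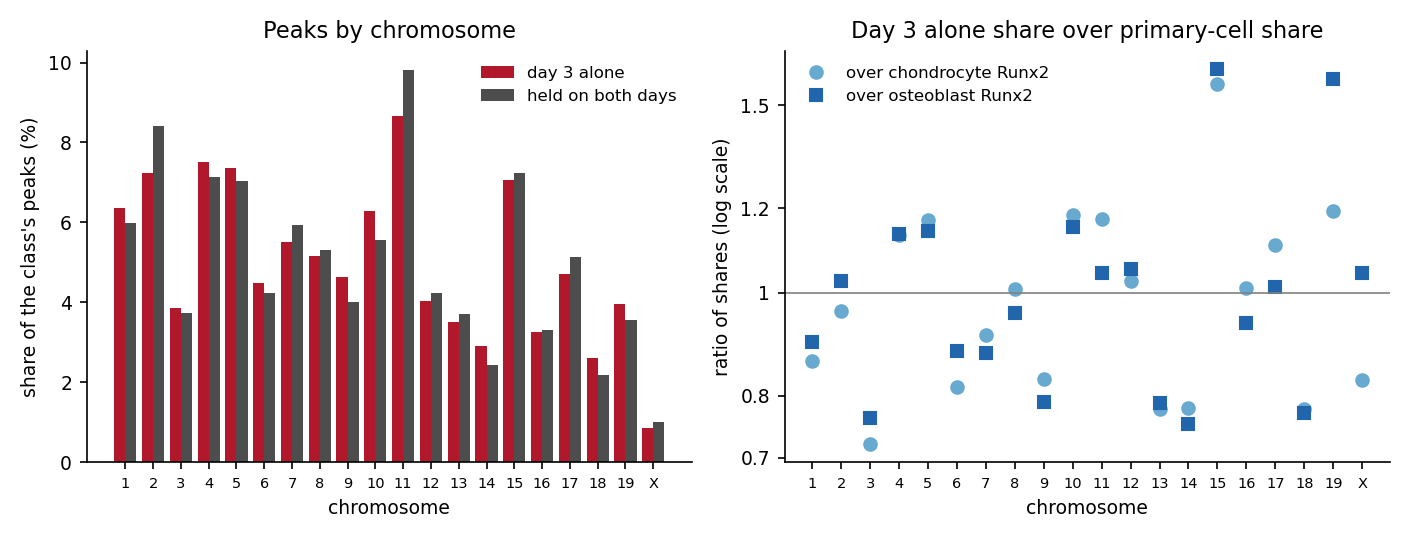
Left, share of the day 3 alone sites and of the peaks listed on both days on each chromosome (y axis, %). Right, share of the day 3 alone sites on each chromosome divided by the share of all chondrocyte or osteoblast Runx2 peaks there (log scale). Chromosome 15 stands highest on the right, at 1.57 and 1.62. On the left it holds 7.06% of the sites and 7.23% of the peaks listed on both days.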

How the data were processed

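The members and measures were chosen with earlier results of these data known. What the authors deposited for each group is a list of called peaks: positions in 3 columns, without a score. The submitters' processing notes name mm9 as the build, and Bowtie and DiffBind as tools with no role. Caller, control, threshold and sequencing depth are not given in the sources used here. Overlap (1 bp) and gaps were checked against bedtools 2.31.1, with 0 differences over 7 lists. Lists with crossed labels kept their own names. Shares near genes and motifs, planned for a genome of this build, were not run, since the references at hand were of another build.

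Tests were run in statsmodels 0.14.6 and SciPy 1.17.1 (Python 3.11.15), tables made with pandas 2.3.3 and NumPy 2.4.6, and plots drawn with matplotlib 3.10.9. Neighbour tests by list were chosen after seeing the data, with peaks that overlap not counted as neighbours. Simulated shares used the real classes of 19293 and 11118 peaks. At a planted odds ratio of 0.9 falling along the file, the test within parts made a call in 28 of 40 draws, and at 0.75 in 40 of 40. The regions named are the 5 first in the file, the 5 widest after the 3 widest (3 of them printed), the 5 nearest to and the 5 farthest from other lists, and the 3 runs with most sites, with ties taken by position. The runs of 14, 13 and 12 sites were added after their values were seen.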

Additional observations from a re-analysis of the deposited data

How the results depend on the processing

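The number of sites stayed within 1.5 times under all but 3 alternatives, those being the wider 50% of the day 3 list (10473 sites, 41.7% of that list), its first 50% in file order (3346, 13.3%) and, chosen after seeing the data, a rule without the 2 lists with crossed labels (33228, 66.2%). The share of the list was 42.3% when 50% of the shorter peak had to be shared, 35.3% and 29.4% where gaps of up to 100 and 500 bp counted as shared, 39.0% with peaks of 200 bp, 41.0% without the lists named for GFP in the rule and 40.3% with overlapping peaks merged. In the order wider 50%, first 50% and no crossed lists, the median width was 274, 194 and 215 bp, the share with a day 0 peak within 5 kb 37.0, 42.2 and 63.7%, and the share with another day 3 peak within 10 kb 53.5, 54.9 and 73.5%. Width was 224 bp with gaps of up to 500 bp, and 200 bp by construction at fixed width. For overlap of 50%, gaps of 100 bp, gaps of 500 bp and no GFP lists, the day 0 share was 42.5, 35.8, 27.3 and 40.9%, and the day 3 share 72.2, 69.8, 65.6 and 72.1% (70.4% with peaks merged). A wider gap removes the sites nearest to other lists by construction, and a shortened list holds fewer neighbours.

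In the first 50% of the file, 3 odds ratios turned to the other side of 1 without passing: another day 3 peak 1.00, osteoblast Runx2 1.10 and chondrocyte Runx2 1.02. There the list named GFP day 3 (0.899) and Foxa2 (1.08) no longer passed. Within parts of the file another day 3 peak (0.964), the list named GFP day 3 (0.933) and Foxa2 (1.09) no longer passed. Foxa2 did not pass in the wider 50% (1.08) or with crossed lists exchanged (1.09). Osteoblast Runx2 passed with the lists exchanged (0.475), at 50% overlap (0.937), within 1 kb (0.884) and within 50 kb (0.936), and chondrocyte Runx2 with the lists exchanged (0.465). With the lists exchanged and within parts, osteoblast Runx2 (0.522) and chondrocyte Runx2 (0.496) passed and Foxa2 (1.05) did not. Within parts, the list named GFP day 3 (0.957) and Foxa2 (1.12) did not pass at 1 kb, and at 50 kb GFP day 3 (1.04) and chondrocyte Runx2 (1.02) turned to the other side of 1 without passing. Jun and GFP day 0 passed in the same direction under all alternatives run. The number of chromosomes that passed was 1 in the wider 50%, 0 in the first 50% by Fisher's exact test and 6 within parts. The cause was not tested. No paired analysis was possible because each list stands for 1 group and carries no replicate, and for the same reason no replicate could be left out.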

Other observations

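The opposite class, peaks of the list named Runx2 day 0 found in no other list, numbered 3415 and lay near day 3 peaks. A Runx2 day 3 peak was within 5 kb of 2392 of them (70.0%, 68.5 to 71.6%) and within 500 bp of 45.3%, at a median gap of 693 bp. Jun was within 5 kb of 31.0% (29.4 to 32.5%), chondrocyte Runx2 of 30.4% (28.8 to 31.9%), osteoblast Runx2 of 25.2% (23.7 to 26.6%), and Foxa2 of 14.8% (13.7 to 16.1%). Of these peaks 85.7% stood after the midpoint of their file, and their median width was 199 bp. The day 3 list is larger than the day 0 list, so these shares were not compared with those of the day 3 alone sites.

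Chromosome 15 carried more of the 3T3 Runx2 peaks than of the peaks of skeletal cells. It held 7.06% of the day 3 alone sites, 7.23% of the peaks listed on both days and 6.38% of the whole Runx2 day 3 list. It also held 6.18% of the list named Runx2 day 0, 6.02% of GFP day 0 and 4.72% of the list named GFP day 3. In chondrocyte Runx2 it held 4.50%, in osteoblast Runx2 4.36%, in Jun 4.57% and in Foxa2 4.23%. The day 3 alone share was thus 1.57 times that of chondrocyte Runx2 and 1.62 times that of osteoblast Runx2. On chromosome 19 the same ratios were 1.19 and 1.59, and on chromosome 3 they were 0.721 and 0.763. These ratios were not tested.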
